A study of Mus musculus with 24 samples.

Results

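The transcripts of 10 genes of bone morphogenetic protein (BMP) signaling were followed in mouse liver ductal cells (DCs) and in the stromal cells around them. The members were taken by their symbols and are the ligands Bmp2, Bmp4, Bmp5, Bmp6 and Bmp7, the receptors Bmpr1a and Bmpr2, the secreted antagonist Grem1 and the target genes Id1 and Id3. All 10 were found among the 49568 rows of each of 2 tables, and all 10 passed the filter on low values in both. In the homeostasis experiment 4 populations were sorted from 3 littermates aged 12 weeks, named A, E and F, which carried one Pdgfra-H2B-GFP allele on a C57BL/6 background. All cells had to lack CD45, CD11b and CD31. DCs were sorted as EpCAM positive. Stromal cells, which were EpCAM negative, were split into a PDGFRα+SCA1- population, a PDGFRα+SCA1+ population and a PDGFRα-SCA1+ population (12 samples, n = 3 mice per population). In the transwell experiment, C57BL/6 wild-type mice aged 8 to 12 weeks gave DCs and SCA1+ mesenchymal cells (Msc), the latter sorted without a PDGFRα gate (12 samples, n = 2 per group). DCs were sequenced at day 0, after 15 days alone as organoids in expansion medium (EM), and after 15 days with Msc across a porous membrane. Msc were sequenced at day 0 and at day 15, alone or from the same co-culture. According to the study's methods, EM held EGF, FGF10, HGF and RSPO1-conditioned medium. Organoids in EM were started with WNT3a-conditioned medium, a ROCK inhibitor and Noggin, a secreted BMP antagonist, which were given for 3 days. Co-cultures were kept in a mesenchymal medium, which also held WNT3a-conditioned medium. The study's results section names serum (FBS) in this medium as well, while its methods define the medium without it. The Msc had been expanded in that medium for some days before the co-culture began, and DCs and Msc came from different littermates, 2 for each.

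Smart-seq2 was used for all libraries, which copies whole transcripts into cDNA and carries no molecular identifiers. The samples were estimated to hold between 19598982 and 25612976 reads on genes in the homeostasis experiment and between 19291624 and 28047549 in the transwell experiment. Values are given as deposited for the homeostasis experiment, where each one is between 0.722 and 1.39 times its TPM (transcripts per 1000000), and as TPM scaled from the deposited RPKM for the transwell experiment. Levels of different genes were compared on the TPM scale alone. Marker genes matched the labels for DCs, where the summed value of 5 ductal markers was 54240 to 74150 in the homeostasis experiment, and for both PDGFRα+ populations, where 6 mesenchymal markers summed to between 23630 and 46470. The PDGFRα-SCA1+ cells had mesenchymal sums of only 254 to 453. In these cells, which were sorted as CD31 negative, all 7 endothelial markers were detected, with a sum of 2649 to 3039 against 6.26 to 31.5 in the other 3 populations. Pecam1, the gene of CD31 itself, was at 726 to 929 there. These libraries also ranged from 79.2 to 3706 in the ductal sum and from 2061 to 6307 in the hepatocyte sum, whereas PDGFRα+SCA1- cells had 104 to 374 and 850 to 1544, and PDGFRα+SCA1+ cells 79.8 to 117 and 974 to 2404. DCs had a hepatocyte sum of 5773 to 6899. The sum of 4 smooth muscle markers was 1037 to 2370 in PDGFRα+SCA1- cells, whereas PDGFRα+SCA1+ cells had 127 to 167, and 5 macrophage markers summed to 6.36 to 136 over the homeostasis samples. In the transwell experiment freshly sorted Msc also held endothelial markers, with a sum of 254 to 256, and hepatocyte markers, with a sum of 17270 to 21730.

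BMPs are secreted dimers of the TGF-β superfamily that bind complexes of type I receptors such as BMPR1A and type II receptors such as BMPR2. The activated receptors phosphorylate SMAD1, SMAD5 and SMAD8, which enter the nucleus with SMAD4 and switch on target genes, among which the Id genes are the best known. ID proteins lack a DNA-binding domain and hold basic helix-loop-helix factors inactive, while Gremlin 1 and Noggin bind BMP dimers in the extracellular space and keep them from their receptors. In the liver, BMP2 and BMP6 from endothelial cells are known for controlling hepcidin in hepatocytes, and BMP4 from the septum transversum takes part in the formation of the liver.

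On GRCm38, in the GENCODE M21 annotation, all 10 are protein-coding genes. Bmp2 spans chr2:133552159-133562885 on the plus strand, Bmp4 chr14:46383520-46390669 on the minus strand, Bmp5 chr9:75775364-75900310 on the plus strand, Bmp6 chr13:38345107-38500302 on the plus strand and Bmp7 chr2:172868012-172940321 on the minus strand. Bmpr1a spans chr14:34410734-34503341 on the minus strand, Bmpr2 chr1:59763400-59879014 on the plus strand, Grem1 chr2:113746164-113758646 on the minus strand, Id1 chr2:152736251-152737410 on the plus strand and Id3 chr4:136143497-136145755 on the plus strand. Values count reads over all exons, without regard to strand. Exon bases are shared with a gene on the opposite strand in Bmp5 (46.7%, with Gm26903), Bmp6 (5.74%, with Txndc5), Bmpr1a (4.57%, with Gm17110) and Bmp4 (3.96%, with Gm15217), and reads from there cannot be told apart.

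Windows around the start of 3 members are shown because these genes mark the main contrasts described below, namely Id3 for the stroma, Bmp6 for the DCs and Grem1 for the PDGFRα+SCA1- and cultured mesenchymal cells. They are RefSeq windows on GRCm38.p6 that run from 250 bases before to 50 bases after the start that RefSeq gives, written 5′ to 3′ on the strand of the gene. Windows matched 7 of the 10 members, and Bmp2, Bmp7 and Id1 had no entry. Capitals mark matches on either strand to GGCGCC and GGAGCC, which are GC-rich forms of the SMAD1/5 element, and to CAGAC, the SMAD3/4 box. GGCGCC was held by 11.9% of all 32817 windows of this length, GGAGCC by 30.8% and CAGAC by 49.6%. The Id3 window lies at chr4:136143572-136143871 on the plus strand, that of Bmp6 at chr13:38345466-38345765 on the plus strand and that of Grem1 at chr2:113758599-113758898 on the minus strand. The windows of Id3 and Bmp6 lie wholly inside the GENCODE spans given above, which begin further upstream than the RefSeq start, so positions below are counted from the RefSeq start.
Id3: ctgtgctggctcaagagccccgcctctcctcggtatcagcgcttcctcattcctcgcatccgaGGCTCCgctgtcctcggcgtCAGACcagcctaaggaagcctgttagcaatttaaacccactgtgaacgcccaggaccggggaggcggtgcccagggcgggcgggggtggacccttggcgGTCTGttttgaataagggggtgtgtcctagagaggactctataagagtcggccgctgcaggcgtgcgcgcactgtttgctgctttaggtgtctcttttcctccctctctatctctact
Bmp6: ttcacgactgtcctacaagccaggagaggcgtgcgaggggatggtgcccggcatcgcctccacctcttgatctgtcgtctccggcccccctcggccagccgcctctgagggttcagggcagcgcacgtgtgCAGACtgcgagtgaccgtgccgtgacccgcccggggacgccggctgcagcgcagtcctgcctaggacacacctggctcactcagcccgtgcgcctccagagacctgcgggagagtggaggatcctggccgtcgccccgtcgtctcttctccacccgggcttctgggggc
Grem1: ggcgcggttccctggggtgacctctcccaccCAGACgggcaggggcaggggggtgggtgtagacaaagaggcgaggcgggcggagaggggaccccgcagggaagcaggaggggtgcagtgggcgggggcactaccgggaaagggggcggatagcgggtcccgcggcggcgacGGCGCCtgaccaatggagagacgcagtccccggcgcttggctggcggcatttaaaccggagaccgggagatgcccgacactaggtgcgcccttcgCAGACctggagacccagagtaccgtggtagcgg
The Id3 window held 1 match to GGAGCC, 187 bases before the start, and 2 to CAGAC. The Bmp6 window held 1 match to CAGAC, and the Grem1 window held GGCGCC 78 bases before the start and CAGAC at 2 places. GGCGCC also stood in the windows of Bmpr1a and Bmpr2. With a GC content of 69.3% and 70.7%, the windows of Bmp6 and Grem1 lay well above the median of all windows, which was 52.7%, and that of Bmp5 lay below it at 43.3%. The window of Bmpr1a had the highest GC content of the 7, at 79.3%. Those of Bmp4 (64.0%), Id3 (60.0%) and Bmpr2 (59.3%) also lay above the median.

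To learn which cells of the healthy liver carry BMP transcripts, the 4 sorted populations were compared. DCs and stroma differed in which ligand they held. Bmp6 was the main ligand transcript of DCs, with 141 ± 11.7 (SD, n = 3), whereas Bmp2 and Bmp4 were high in every stromal population and low in DCs. Bmp5 and Grem1 were read in PDGFRα+ cells and at 0 in DCs. Id3 was more than 10 times higher in each stromal population than in DCs, at a mean of 2314 to 3611 against 165. Against DCs, 5 members were higher and 2 lower in PDGFRα+SCA1+ cells, where 9.85% of all 17028 genes tested were higher and 14.0% lower. In PDGFRα+SCA1- cells 5 were higher and 2 lower (9.98% and 18.9% of all genes), and in PDGFRα-SCA1+ cells 5 were higher and 3 lower (11.5% and 11.3%). In the PDGFRα+SCA1- comparison, quantile normalization changed the split over all genes from 1699 higher and 3212 lower to 2161 and 2522. Comparisons with DCs share the DC samples. In such bulk samples, fewer cells that express a gene and less RNA per cell cannot be told apart.

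**Figure D1:**
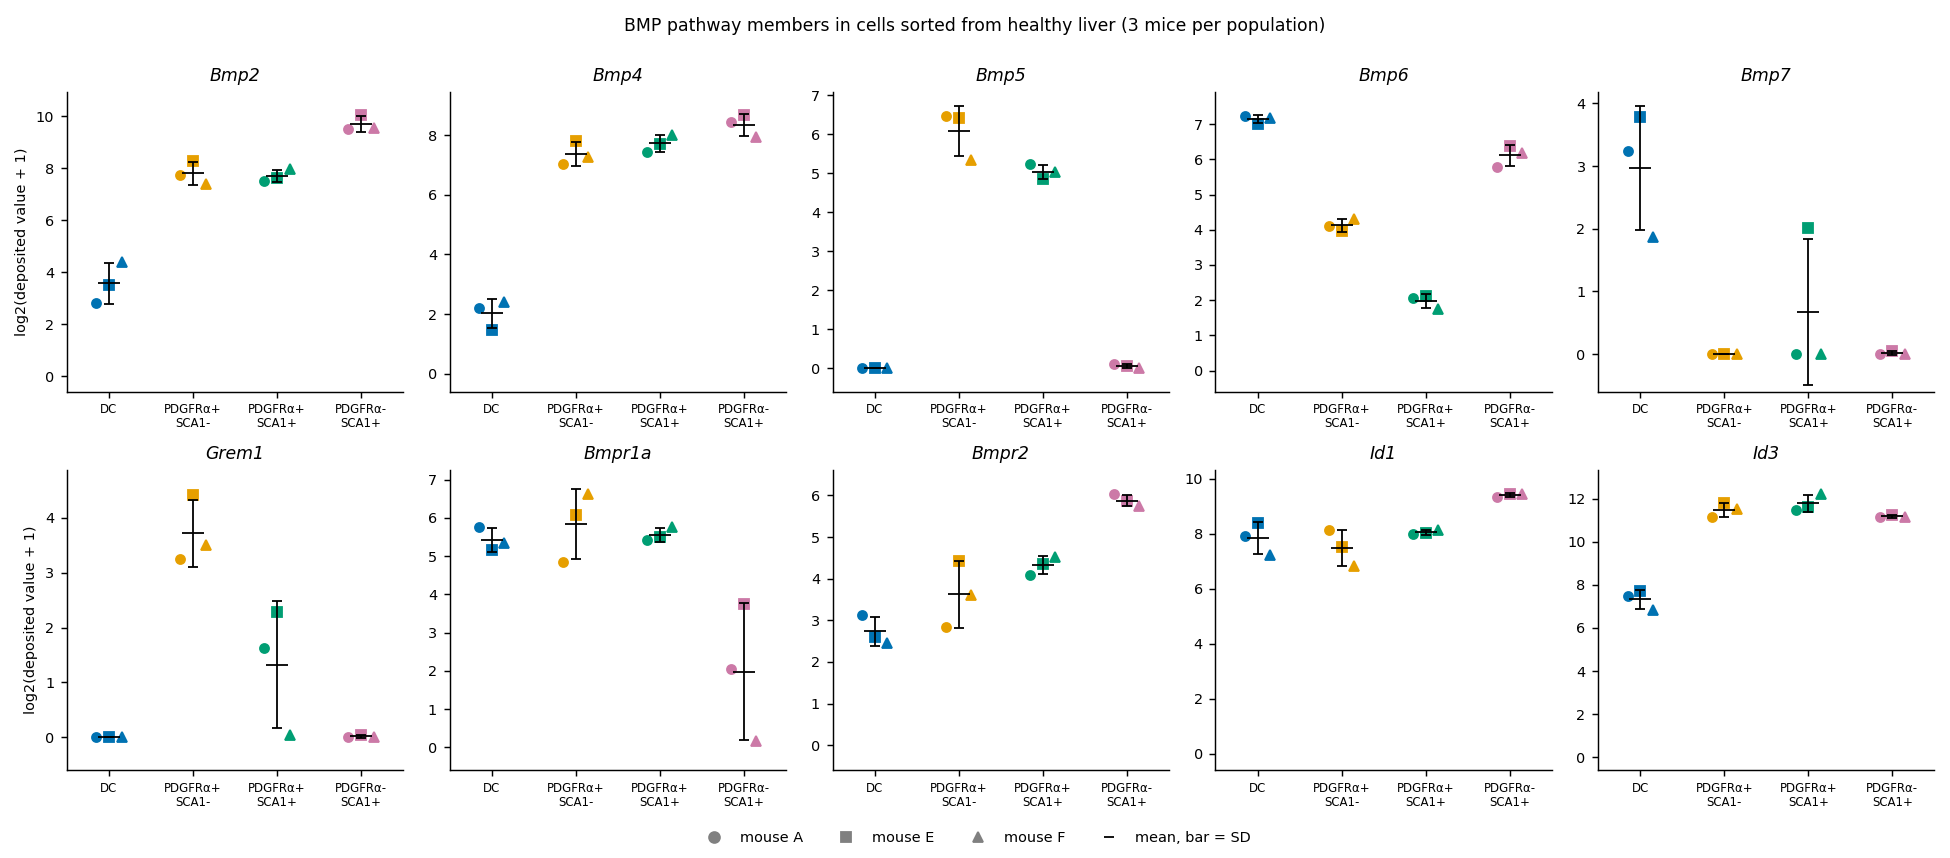
Each panel shows 1 member in DCs and 3 stromal populations of mice A, E and F, on the y axis as log2(deposited value + 1), with the mean and SD as black bars. Bmp6 and Bmp7 are highest in DCs, Bmp5 and Grem1 are near 0 in DCs and PDGFRα-SCA1+ cells, and Bmp2, Bmpr2 and Id1 are highest in PDGFRα-SCA1+ cells.

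Bmp2 was at 5.95, 10.4 and 20.1 in the DCs of mice A, E and F. PDGFRα+SCA1+ cells held 182, 196 and 247, and PDGFRα+SCA1- cells held 212, 310 and 166. PDGFRα-SCA1+ cells reached 725, 1051 and 754. None of these 3 ranges overlapped that of DCs, and the PDGFRα-SCA1+ cells stood above all other samples. Compared with DCs, Bmp2 was higher by a log2 fold change of 4.13 ± 0.38 (standard error) in PDGFRα+SCA1+ cells (adjusted p = 7.03e-06). For PDGFRα+SCA1- cells this value was 4.23 (5.54e-06), and for PDGFRα-SCA1+ cells it was 6.13 (5.23e-07). PDGFRα-SCA1+ cells were also higher than PDGFRα+SCA1+ cells by 2.0 (adjusted p = 0.00246), whereas both PDGFRα+ populations differed by only -0.10 ± 0.38 (0.968). The endothelial marker sums given above were high in the same PDGFRα-SCA1+ libraries, and their part in the level of Bmp2 was not tested.

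Bmp4 is the closest relative of Bmp2 and was distributed like it over the populations (r = 0.958 over 12 samples that share 3 mice). It was read at 3.62, 1.80 and 4.28 in DCs, while PDGFRα+SCA1- cells gave 131, 222 and 153. Values of 173, 209 and 257 were found for PDGFRα+SCA1+ cells, and of 348, 405 and 246 for PDGFRα-SCA1+ cells. All 9 stromal samples exceeded all DC samples, by a log2 fold change of 5.34 to 6.32 with a standard error of 0.33 (adjusted p = 1.38e-07 to 3.02e-07). The stromal populations overlapped one another. The difference between PDGFRα-SCA1+ and PDGFRα+SCA1- cells, at 0.99, was just past the threshold (adjusted p = 0.0497) and lost the call with the mouse as a block (0.0741), under quantile normalization (0.151) and when any one of 9 of the 12 libraries was left out (0.0507 to 0.151).

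Bmp5 separated the PDGFRα+ cells from all others. PDGFRα+SCA1- cells held 88.0, 85.3 and 39.4, and PDGFRα+SCA1+ cells 36.5, 28.0 and 31.6. No read of it was found in the 3 DC libraries, where 3 reads would be worth 0.103 to 0.119, and PDGFRα-SCA1+ cells held 2, 1 and 0 reads. The mean of the PDGFRα+SCA1- cells was therefore at least 596-fold higher than that of DCs, and the mean of the PDGFRα+SCA1+ cells at least 269-fold higher (floor of 3 reads per library). In the fit on the log2(value + 1) scale, Bmp5 fell from PDGFRα+SCA1- cells to the PDGFRα-SCA1+ population (log2 fold change -6.03 ± 0.48, adjusted p = 4.07e-06). The difference of both PDGFRα+ populations did not pass the test (log2 fold change -1.04 ± 0.48, adjusted p = 0.427). The overlap of its exons with Gm26903 given above bears on all of these values.

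Bmp6 had the reverse pattern. It was at 151, 128 and 145 in DCs. PDGFRα-SCA1+ cells followed with 54.4, 81.9 and 72.1, then PDGFRα+SCA1- cells with 16.2, 14.5 and 18.9, and PDGFRα+SCA1+ cells came last with 3.18, 3.36 and 2.35. No neighbours in this order overlapped. PDGFRα+SCA1+ cells were lower than DCs by a log2 fold change of -5.17 ± 0.30 (adjusted p = 1.79e-07) and PDGFRα+SCA1- cells by -3.02 (1.27e-05). The smaller difference of PDGFRα-SCA1+ cells, at -1.03 (adjusted p = 0.0256), was not called without the DCs of mouse A, E or F or without the PDGFRα-SCA1+ cells of mouse A (0.0784 to 0.115). Bmp6 was the sole member called between both PDGFRα+ populations, where 0 members were higher and 1 lower in PDGFRα+SCA1+ cells while 0.435% of all genes were higher and 0.153% lower. That log2 fold change was -2.15 ± 0.30 (adjusted p = 0.0124). With the mouse as a block its adjusted p was 0.05, no longer under the threshold, which left 0 members called. It was also above the threshold without the PDGFRα+SCA1+ cells of mouse A or F (0.0665 and 0.0688) and in a fit of these populations alone (0.267). At an unadjusted p under 0.05, 3 of the 10 members (Bmp5, Bmp6 and Grem1, all lower in PDGFRα+SCA1+ cells) and 1985 of the 17028 genes were found. Quantile normalization changed the calls of this comparison from 74 higher and 26 lower to 31 and 23.

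Bmp7, which acts in kidney and skeletal development, was read mainly in DCs. DCs held 8.44, 12.8 and 2.64, PDGFRα+SCA1- cells held none in any of 3 libraries, and PDGFRα-SCA1+ cells held 1 read in all. In PDGFRα+SCA1+ cells it was at 0 in mice A and F and at 3.05, or 72 reads, in mouse E, so that the population's mean rested on this library. DCs were at least 57.2-fold higher than PDGFRα+SCA1- cells. The hepatocyte sum was 5773 to 6899 in these DCs and 2061 to 6307 in PDGFRα-SCA1+ cells. The part of hepatocyte transcripts in the level of Bmp7 was not tested. The call against PDGFRα+SCA1+ cells (log2 fold change -2.29 ± 0.62, adjusted p = 0.0175) was lost without the DCs of mouse A or E or without the PDGFRα+SCA1+ cells of mouse A or F (0.0642 to 0.0852).

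**Figure D2:**
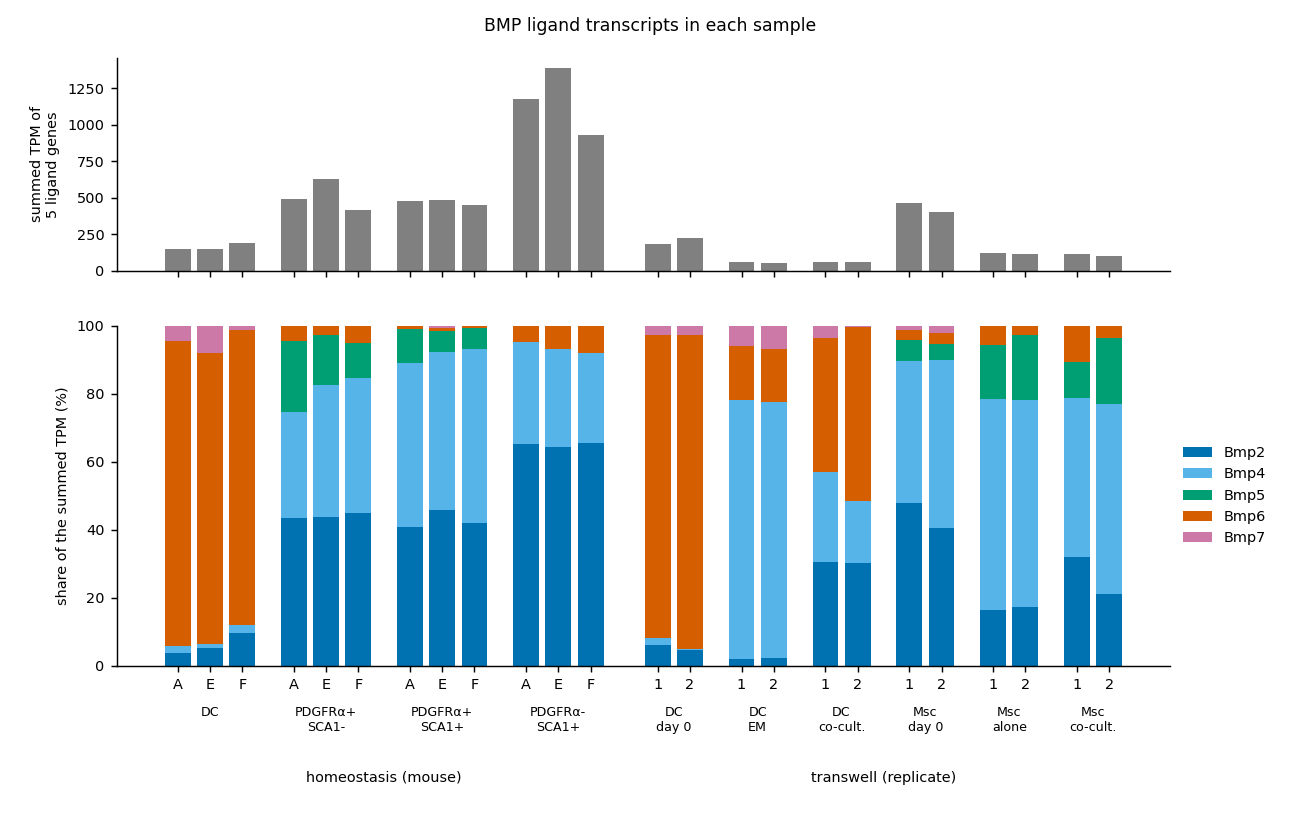
The upper panel shows the summed TPM of Bmp2, Bmp4, Bmp5, Bmp6 and Bmp7 in each of the 24 samples, and the lower panel the share of each ligand in that sum in percent. Bmp6 makes up 85.9% to 92.4% in freshly sorted DCs, while Bmp2 and Bmp4 dominate the freshly sorted stromal samples. Bmp4 has the largest share in cultured Msc and in the organoids in EM. In Msc alone the mean share is 17.5% for Bmp5 and 16.7% for Bmp2.

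On the TPM scale, which allows genes to be set side by side, the 5 ligands summed to 162 ± 23.7 in DCs and to 469 ± 16.6 in PDGFRα+SCA1+ cells (SD, n = 3). PDGFRα+SCA1- cells summed to 511 ± 108 and PDGFRα-SCA1+ cells to 1163 ± 229. Bmp6 gave 87.5% ± 2.03 of it in DCs and 0.741% ± 0.185 in PDGFRα+SCA1+ cells. Bmp2 gave 42.9% and Bmp4 48.6% of the sum in PDGFRα+SCA1+ cells, and in PDGFRα-SCA1+ cells Bmp2 gave 65.0% ± 0.647. Bmp5 contributed 15.4% ± 5.40 to the PDGFRα+SCA1- population, where PDGFRα+SCA1+ cells had 7.56% ± 2.24.

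Grem1, whose protein captures BMP2 and BMP4, was found in the PDGFRα+SCA1- cells of all 3 mice at 8.56, 20.4 and 10.3. In PDGFRα+SCA1+ cells it was at 2.10 and 3.90 in mice A and E, whereas mouse F held a single read. DCs held no read, and PDGFRα-SCA1+ cells 1 read in 3 libraries. PDGFRα+SCA1- cells were thus at least 118-fold above DCs (log2 fold change 3.73 ± 0.59, adjusted p = 4.74e-04), and they were also above PDGFRα-SCA1+ cells (adjusted p = 6.94e-04). Both PDGFRα+ populations did not overlap, but their difference of -2.40 ± 0.59 was not past the threshold over all genes (adjusted p = 0.115). Without the PDGFRα+SCA1+ library of mouse F, Grem1 was also called in that population against DCs (log2 fold change 1.96, adjusted p = 0.026) and against PDGFRα-SCA1+ cells (0.034).

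The receptors did not move together. Bmpr1a, a type I receptor that binds BMP2 and BMP4, was at 34.8 to 53.4 in DCs and at 41.7 to 53.4 in PDGFRα+SCA1+ cells, and PDGFRα+SCA1- cells spanned 27.7 to 97.1. These ranges overlapped. In PDGFRα-SCA1+ cells it was at 3.11, 12.5 and 0.113, below every other sample, with a log2 fold change of -3.44 ± 0.73 against DCs (adjusted p = 0.00439) and -3.58 against PDGFRα+SCA1+ cells (0.00449). Bmpr2, the type II receptor, was highest in those same cells, at 64.0, 57.6 and 52.4 against 4.52 to 7.72 in DCs and 16.1 to 21.8 in PDGFRα+SCA1+ cells. Bmpr2 differed by a log2 fold change of 3.15 ± 0.43 from DCs (adjusted p = 1.96e-04) and of 1.56 from PDGFRα+SCA1+ cells (0.0253), the latter above the threshold under quantile normalization (0.063) and without any one of the 6 libraries compared (0.0529 to 0.091). PDGFRα+SCA1+ cells exceeded DCs by 1.59 (0.0184), a call that was lost without the DCs or the PDGFRα+SCA1+ cells of mouse E or F (0.0582 to 0.0746). PDGFRα+SCA1- cells ran from 6.12 to 20.6 and did not pass against DCs (0.145), although they did under quantile normalization (0.0295) and without the PDGFRα+SCA1- library of mouse A (0.0277).

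The target genes Id1 and Id3 also went separate ways. Id3 was at 175, 207 and 113 in DCs, and the stromal samples ranged from 2240 to 4829. PDGFRα+SCA1+ cells exceeded DCs by a log2 fold change of 4.45 ± 0.27 (adjusted p = 2.31e-07), PDGFRα+SCA1- cells by 4.15 (4.22e-07) and PDGFRα-SCA1+ cells by 3.84 (1.02e-06). PDGFRα-SCA1+ cells did not differ past the threshold from PDGFRα+SCA1+ cells (-0.60, 0.145) on the deposited scale, but did with TPM (-0.72, 0.0309). Id1 did not share this pattern and was at 150 to 329 in DCs. PDGFRα+SCA1+ cells, with 252 to 282, overlapped these, and so did PDGFRα+SCA1- cells, with 111 to 279. PDGFRα-SCA1+ cells alone stood apart, at 637, 694 and 696, with a log2 fold change of 1.56 ± 0.33 against DCs (adjusted p = 0.00441). The difference was 1.36 from PDGFRα+SCA1+ cells (0.0129) and 1.92 from the PDGFRα+SCA1- population (0.00133). Per transcript, DCs held 0.658 ± 0.0516 Id3 for each Id1 (ratio of TPM, SD, n = 3). This ratio was 12.8 ± 3.46 in PDGFRα+SCA1+ cells, and PDGFRα+SCA1- cells had 16.8 ± 8.88 while PDGFRα-SCA1+ cells had 3.22 ± 0.374. By mean TPM, Id3 was thus the most abundant member in every stromal population and Id1 in DCs.

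Between PDGFRα-SCA1+ and PDGFRα+SCA1+ cells, 4 members were higher and 2 lower, while 10.9% of all genes were higher and 7.86% lower. Against PDGFRα+SCA1- cells 5 were higher and 3 lower (14.2% and 7.24% of all genes). Bmp2, Bmp6, Bmpr2 and Id1 were higher in both, and Bmp5 and Bmpr1a lower in both. Over all genes, quantile normalization changed the first split from 1855 higher and 1339 lower to 1412 and 1675, and the second from 2426 and 1232 to 1645 and 1621. It also moved the median log2 fold change of all genes in the second comparison from 0.41 to 0.05, and no called member changed direction under any scaling.

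Further genes of the pathway were counted in a list of 45, of which 36 could be tested in the homeostasis experiment. In PDGFRα+SCA1+ cells 14 of them exceeded DCs and 2 were below, beside 9.85% and 14.0% of all genes, with a median log2 fold change of 1.59 against -0.28 over all genes. In PDGFRα+SCA1- cells 13 were higher and 2 lower (9.98% and 18.9% of all genes, median 0.95 against -0.47), whereas PDGFRα-SCA1+ cells had 9 higher and 3 lower (11.5% and 11.3% of all genes, median 0.10, or 0.26 with genes absent from a population at their bound, against -0.05). Eng, the co-receptor endoglin, was at 9.53 ± 5.30 in DCs, at 628 ± 97.4 in PDGFRα+SCA1+ cells and at 4047 ± 870 in the PDGFRα-SCA1+ population (SD, n = 3). Ligands for its partner ALK1 were found in PDGFRα+ cells, where Gdf2, which encodes BMP9, had a mean of 0.0359 in DCs. PDGFRα+SCA1- cells held 179 ± 96.3 of it (log2 fold change 7.25) and PDGFRα+SCA1+ cells 40.2 ± 12.8 (5.27). Gdf6, another ligand, was at 45.7 ± 13.8 in PDGFRα+SCA1+ cells (log2 fold change 5.48). Of 11 antagonists and extracellular modulators tested, 5 were higher than in DCs in PDGFRα+SCA1+ cells and 4 in the PDGFRα+SCA1- population, and none was lower, beside 9.85% and 9.98% of all genes higher and 14.0% and 18.9% lower. Compared with PDGFRα+SCA1+ cells, 7 were lower and 1 higher in the PDGFRα-SCA1+ population (7.86% and 10.9% of all genes). Among these, Nbl1 was at 15.3 ± 14.4 in PDGFRα-SCA1+ cells against 423 ± 67.6 with SCA1 and 1142 ± 263 without SCA1 in both PDGFRα+ populations. The follistatin relative Fstl3 was at 0.0189 in PDGFRα-SCA1+ cells against 49.6 ± 8.16 in DCs. The feedback inhibitors Smad6, Smad7 and Bambi, picked out after their values were seen, were higher than in DCs in each of the 3 stromal populations. They were the only ones higher among 8 SMADs and intracellular regulators tested. Of these 8, 4 were not called in PDGFRα+SCA1+ cells, 4 in PDGFRα+SCA1- cells and 5 in PDGFRα-SCA1+ cells. The share of all genes that was higher was 9.85%, 9.98% and 11.5% in the same order. Smad4 was lower than in DCs in both PDGFRα+ populations. Of 5 other target genes tested, 1 was higher than in DCs in PDGFRα+SCA1+ cells, 0 in PDGFRα+SCA1- cells and 3 in PDGFRα-SCA1+ cells. None of these target genes was lower. Of all genes, 9.85%, 9.98% and 11.5% were higher and 14.0%, 18.9% and 11.3% lower. No gene of the list passed the test between both PDGFRα+ populations by limma, where 100 of 17028 genes did.

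The genes most like each member over the 12 homeostasis samples were found by Pearson correlation of log2(value + 1), as a description of samples that share 3 mice and 4 populations. Bmp5 ran closest with Adamts13 (r = 0.996), a protease gene known from hepatic stellate cells, and with Naalad2 (0.993). Bmp4 ran with Cyp1b1 (0.993), Id3 with Adamts4 and Cst3 (both 0.992) and Grem1 with Hmcn2 (0.969). Bmp6 ran with Cd9 (0.982) and Neurl3 (0.965), Bmp2 with Mx2 (0.985), Bmpr2 with Cdh13 (0.984) and Bmpr1a with Fn1 (0.951). The closest to Id1 was Txnip (0.955). Bmp7 ran with Snhg11 (0.992) and G6pc (0.99), over values that were mostly 0.

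The transwell experiment asked what becomes of DCs and Msc when they are grown apart or share a medium. At day 0, 7 members were higher and 1 lower in Msc than in DCs, where 21.4% of all 18136 genes tested were higher and 24.7% lower. Bmp2 was at 220 and 164 in Msc replicates 1 and 2 and at 11.0 and 9.98 in DCs (log2 fold change 4.05 ± 0.26, adjusted p = 1.97e-06). Bmp6 was at 161 and 206 in DCs and at 14.0 and 12.7 in Msc (-3.68 ± 0.45, 1.24e-04). Id1 was also higher in Msc, by 0.84 ± 0.16 (adjusted p = 0.00208), whereas it was not called between PDGFRα+SCA1+ cells and DCs of the homeostasis experiment (0.21 ± 0.33, 0.718). Bmp5 had no read in DCs and was at 27.9 and 19.1 in Msc, which is at least 197-fold higher. Grem1 was at 3.60 and 0.804 in Msc and was called against DCs (adjusted p = 0.0247), but not without either DC library or without Msc replicate 1 (0.0846 to 0.154). Bmp7 was at 5.30 and 9.01 in Msc and at 4.86 and 6.16 in DCs, and the difference did not pass the test (log2 fold change 0.29 ± 0.45, adjusted p = 0.645). The study describes the 2 samples of a group as biological replicates, while the labels number them without naming an animal or culture.

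**Figure D3:**
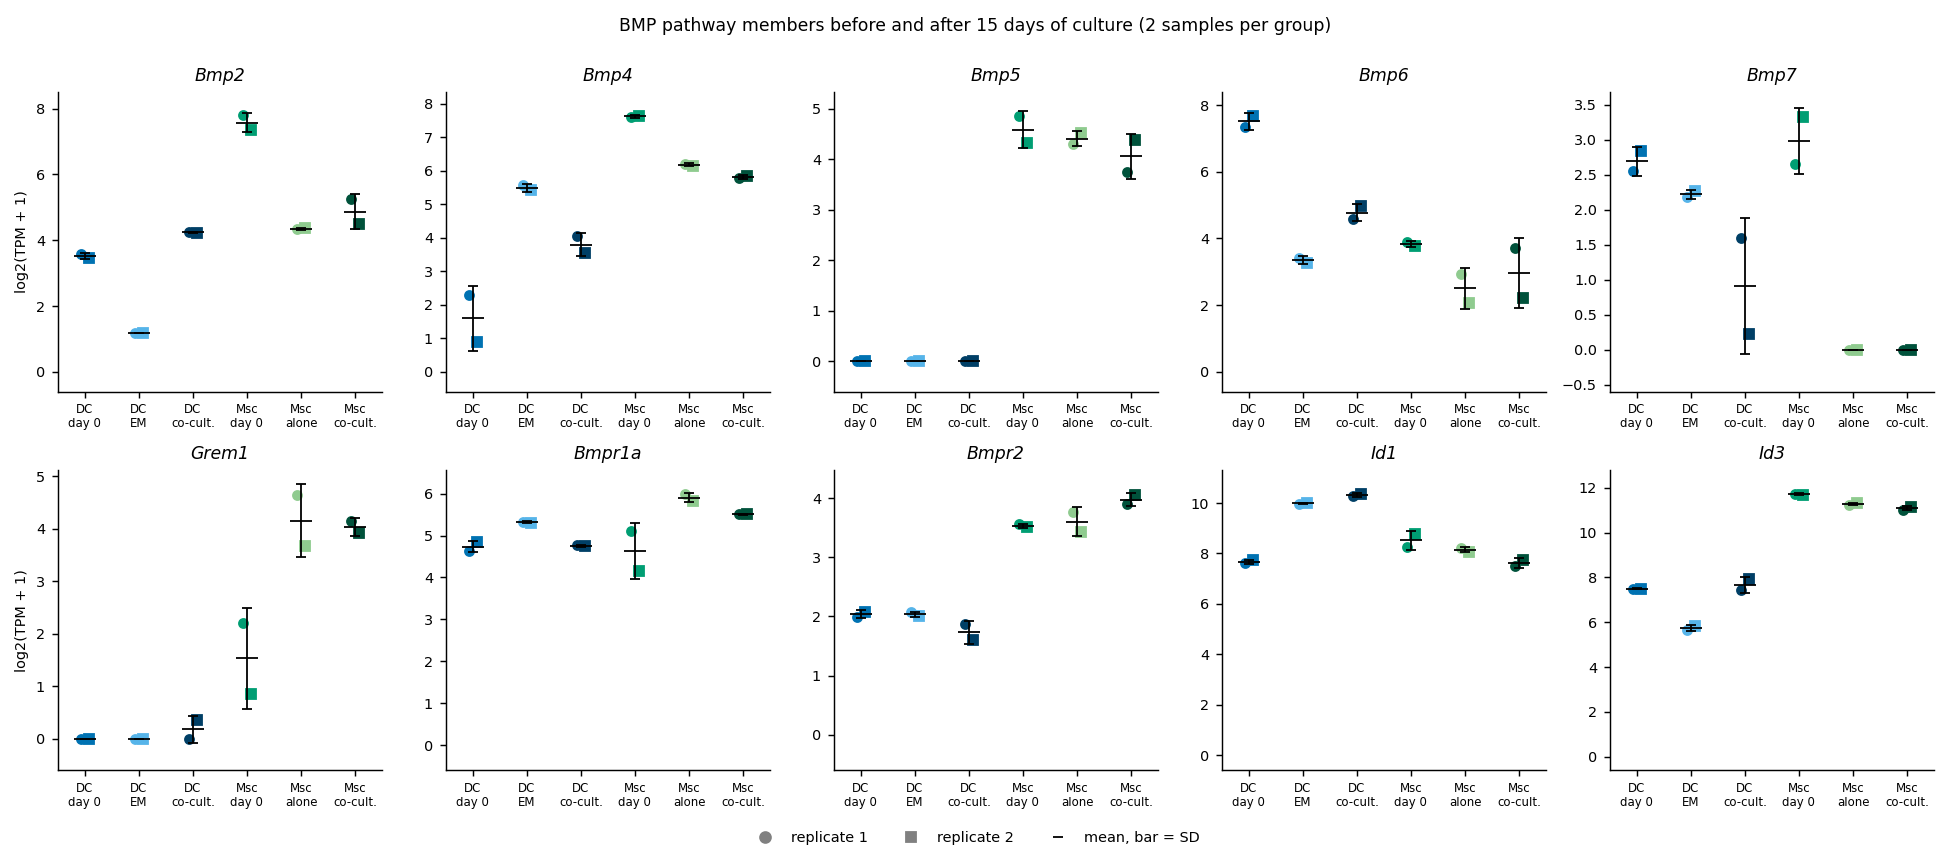
Each panel shows 1 member in the 6 transwell groups, on the y axis as log2(TPM + 1), with 2 replicates per group and the mean and SD as black bars. In DCs Bmp6 is lower and Id1 higher in both cultures than at day 0, Id3 is lowest in EM, and in Msc Bmp2 is lower and Grem1 higher in both cultures than at day 0.

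Organoids grown from DCs had lost most of the Bmp6 transcript, and they had gained Bmp4 and Id1. Against day 0, 2 members were higher and 3 lower in EM, where 27.1% and 17.2% of all genes were, and 3 were higher and 2 lower in co-culture, where 23.2% and 19.1% were. Bmp6 was at 9.77 and 8.64 in EM and at 23.1 and 30.2 in co-culture, a log2 fold change of -4.17 ± 0.45 and -2.74 ± 0.45 against day 0 (adjusted p = 6.54e-05 and 9.16e-04). Bmp4 was at 3.87 and 0.862 at day 0, at 46.3 and 41.6 in EM and at 15.5 and 10.7 in co-culture (log2 fold change 3.90 and 2.21 ± 0.37, adjusted p = 2.81e-05 and 9.95e-04). None of these ranges overlapped. As a result of both shifts, Bmp6 made up 90.7% ± 2.33 of the ligand TPM in DCs at day 0 and 15.8% ± 0.321 in EM, where Bmp4 made up 75.6% ± 0.627 (SD, n = 2). The summed TPM of the 5 ligands was 202 ± 29.8 at day 0, 58.1 ± 3.87 in EM and 58.7 ± 0.181 in co-culture. Bmp5 had no read in any of the 6 DC and organoid libraries, and Grem1 had reads in a single one, 9 in co-culture replicate 2.

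Marker sums of other cells were also compared over these 15 days. In DCs the hepatocyte sum was 4158 to 5274 at day 0, 1339 to 1404 in EM and 153 to 347 in co-culture, and the sum of 8 immediate early genes, which tissue dissociation is known to induce, was 10760 to 10860, 976 to 1013 and 1251 to 1334. Of the 5 hepatocyte markers, Cps1 was at 0 in every organoid library, and 3 reached 1 in a sample of each organoid group. The endothelial sum was 38.7 to 39.1 at day 0, 2.93 to 6.80 in EM and 8.20 to 8.62 in co-culture, with Kdr, Cdh5, Tek, Stab2 and Lyve1 at 0 in every organoid library. Mesenchymal markers summed to 61.1 to 79.7, 1.11 to 6.21 and 2.20 to 14.8, smooth muscle markers to 12.4 to 13.4, 6.14 to 7.63 and 0.430 to 19.1, and macrophage markers to 77.5 to 84.2, 24.3 to 28.5 and 74.9 to 94.3. The ductal sum stayed between 36170 and 51710. The part of these genes' cells and of dissociation in the changes of the members was not tested.

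**Figure D4:**
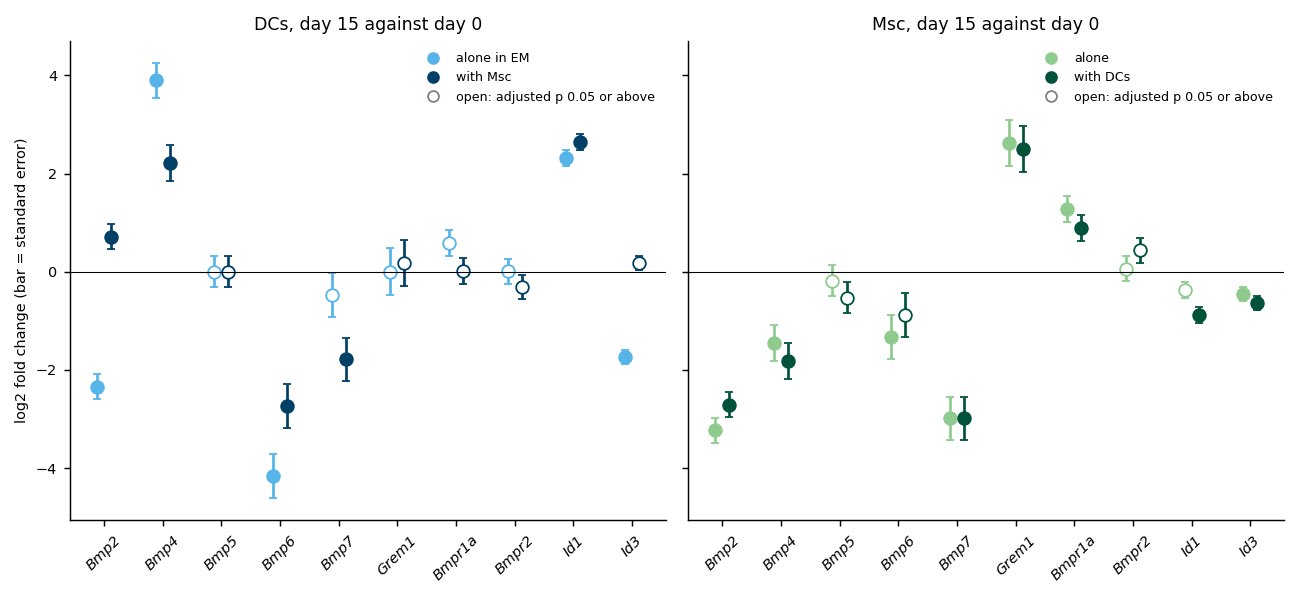
The log2 fold change of each member from day 0 to day 15 is shown for DCs (left) and Msc (right) with its standard error, and open circles mark changes at an adjusted p of 0.05 or above. Per the study's methods, co-cultured Msc had been expanded before DCs were added. Id1 rises in DCs by 2.32 in EM and 2.65 in co-culture while Id3 falls by 1.74 in EM alone, and in Msc Grem1 rises by 2.62 alone and 2.5 in co-culture.

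Id1 and Id3 went opposite ways in EM. Id1 rose from 195 and 211 at day 0 to 1008 and 1017 in EM and to 1232 and 1322 in co-culture, by a log2 fold change of 2.32 ± 0.16 and 2.65 ± 0.16 (adjusted p = 4.90e-06 and 2.48e-06). Id3 fell from 178 and 181 to 49.6 and 56.7 in EM (-1.74 ± 0.14, adjusted p = 1.13e-05), whereas it was at 171 and 241 in co-culture, which did not differ from day 0 beyond the spread (0.18 ± 0.14, 0.361). The change of Id3 in co-culture passed the test once co-culture replicate 1 was left out (0.42, adjusted p = 0.0175). In TPM, Id3 amounted to 0.886 ± 0.0398 of Id1 at day 0, 0.0524 ± 0.00458 in EM and 0.160 ± 0.0306 in co-culture (SD, n = 2).

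**Figure D5:**
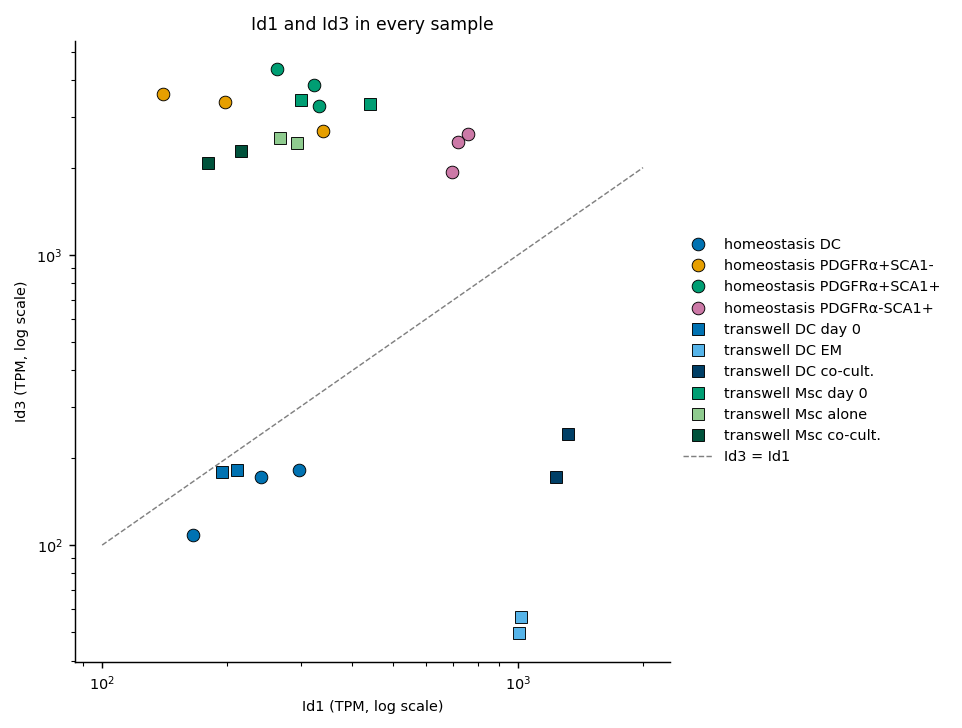
Id1 (x axis) is plotted against Id3 (y axis), both in TPM on log scales, for all 24 samples, with circles for the homeostasis and squares for the transwell experiment and a dashed line where both are equal. All DC and organoid samples lie below the line and all stromal samples above it, and the EM organoids are farthest from it on the lower side.

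The 2 ways of growing organoids were then set against each other. They differ both in the presence of Msc and in the medium, and these cannot be told apart. In co-culture 2 members were higher and 1 lower than in EM, where 5.73% and 7.21% of all genes were. Bmp2 was at 17.9 and 17.8 in co-culture and at 1.26 and 1.28 in EM, a log2 fold change of 3.05 ± 0.26 (adjusted p = 8.36e-05). Id3 was higher by 1.92 ± 0.14 (3.70e-05). Bmp4 was lower by a log2 fold change of -1.69 ± 0.37 (0.015), and this call was lost with a pseudocount of 0.1 (0.0681), with quantile normalization (0.0516) and without EM replicate 1 or 2 or co-culture replicate 2 (0.07 to 0.102). Bmp6 was higher in co-culture, with 23.1 and 30.2 against 9.77 and 8.64, but was not called (1.43 ± 0.45, adjusted p = 0.0689). It was called in RPKM as deposited (0.0276) and in a fit of these groups alone (0.00834), which called 6 members, the added ones being Bmp6, Id1 and Bmpr1a. Against day 0, Bmp2 was lower in EM by a log2 fold change of -2.34 ± 0.26 (7.02e-05) and marginally higher in co-culture by 0.71 ± 0.26 (0.0479), the latter not called under quantile normalization (0.16) or when any one of 8 of the 12 libraries was left out (0.0621 to 0.171).

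Bmp7 was at 4.86 and 6.16 at day 0, at 3.52 and 3.82 in EM and at 2.03 and 0.165 in co-culture. Only the co-culture was called against day 0 (log2 fold change -1.79 ± 0.44, adjusted p = 0.00957), and not without DC day 0 replicate 2 (0.058) or co-culture replicate 2 (0.0734), which left 3 members called in either case. Bmpr1a was at 23.9 and 27.6 at day 0, 39.2 and 38.6 in EM and 26.1 and 25.7 in co-culture, and its difference between EM and day 0 was not called (0.58 ± 0.26, adjusted p = 0.102), although it was without either Msc day 0 library (0.00568 and 0.00616). Bmpr2 lay between 2.02 and 3.23 in all 6 libraries.

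Cultured Msc carried less Bmp2 and Bmp4 and more Grem1 than freshly sorted ones. Against day 0, 2 members were higher and 5 lower in Msc alone, where 27.4% and 17.5% of all genes were, and 2 were higher and 5 lower in co-culture, where 26.0% and 17.3% were. Bmp2 was at 220 and 164 at day 0, at 19.1 and 19.7 alone and at 36.9 and 21.5 in co-culture, with log2 fold changes of -3.22 and -2.71 ± 0.26 (adjusted p = 1.08e-05 and 3.18e-05). Bmp4 was at 193 and 200, then at 73.3 and 70.2 alone and 53.8 and 56.6 in co-culture (-1.44 and -1.82 ± 0.37, 0.00993 and 0.00303), and with a pseudocount of 0.1 the former was not called (0.0523). Grem1 was at 3.60 and 0.804 and then at 23.9 and 11.7 alone and at 16.8 and 14.0 in co-culture (2.62 and 2.5 ± 0.47, 0.00161 and 0.00219). The ranges of all 3 genes at day 0 lay apart from those at day 15. This was also so for Bmp6, Bmp7, Bmpr1a, Id1 and Id3, but not for Bmp5 and Bmpr2. How many of all genes had such ranges, with 2 libraries at day 0, was not counted, so nothing particular to the members is read from them.

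Bmp7 was no longer read in any of the 4 cultured Msc libraries, at least 70.5-fold lower alone and 60.7-fold lower in co-culture than its day 0 mean of 7.15. Bmp5 stayed at 12.4 to 27.9 throughout and was not called (adjusted p = 0.69 and 0.21). Bmp6 was lower alone (log2 fold change -1.33 ± 0.45, adjusted p = 0.0357), a call lost without either library of DC day 0, DC in EM or Msc day 0 or without Msc alone replicate 2 (0.0512 to 0.218). Bmpr1a was higher, by 1.28 ± 0.26 alone (0.00315) and 0.89 in co-culture (0.0209). The latter was not called under quantile normalization (0.0559) or without Msc day 0 replicate 2 or either co-culture replicate (0.0693 to 0.0798), and was 0.41 without Msc day 0 replicate 2. Bmpr2 did not pass the test (0.885 and 0.19).

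Id3 remained the most abundant member of Msc, at 3428 and 3324 at day 0, 2425 and 2523 alone and 2071 and 2274 in co-culture. Its log2 fold changes were -0.45 ± 0.14 alone (adjusted p = 0.027) and -0.64 ± 0.14 in co-culture (0.00506), while the median of all genes was 0.19 and 0.17. Neither was called under quantile normalization (-0.10, 0.609 and -0.29, 0.126), and the former was lost without any one of the 4 libraries compared (0.0653 to 0.112). Id1 was lower in co-culture (-0.89 ± 0.16, 0.00184), at 179 and 216 against 301 and 441 at day 0, and was not called alone (0.0908), except without Msc day 0 replicate 1 (0.00356). Over the same time the hepatocyte sum in Msc went from 17270 to 21730 down to 25.4 to 381, the immediate early sum from 25030 to 25690 down to 642 to 872, and the endothelial sum from 254 to 256 down to 91.8 to 181, with Stab2 and Lyve1 at 0 in Msc alone. Of the hepatocyte markers, Cps1 was at 0 in all cultured Msc and Apoa1 in Msc alone. The ductal sum went from 1156 to 2417 down to 211 to 553 and the macrophage sum from 49.7 to 105 down to 13.3 to 23.9, whereas the smooth muscle sum went from 518 to 724 up to 2927 to 3538 and the mesenchymal sum from 19990 to 20850 up to 28550 to 33050. The part of these cells and of dissociation in the changes of Bmp2, Bmp4, Bmp7 and Id3 was not tested.

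Whether Msc changed when DCs shared their medium was tested by setting co-cultured Msc against Msc alone. Of the members 0 were higher and 0 lower by limma, where 0.0937% and 0.0331% of all genes were, or 23 of 18136 genes. At an unadjusted p under 0.05, 1 of the 10 members (Id1) and 1263 of all genes were found. The log2 fold changes ranged from -0.51 ± 0.16 for Id1 (adjusted p = 0.502) to 0.52 ± 0.26 for Bmp2 (0.77).

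The change from day 0 to co-culture differed between DCs and Msc for 5 members in a test of the difference itself, with 4 higher and 1 lower in DCs, where 13.8% and 14.5% of all genes were. These were Bmp2, Bmp4, Id1 and Id3, which moved up relative to Msc, and Grem1, which moved down. The largest were Bmp4, at 4.02 ± 0.52 (adjusted p = 5.21e-04), and Id1, at 3.54 ± 0.23 (1.30e-05). Since the Msc had been expanded before DCs were added, both changes do not span the same time in culture. Without Msc co-culture replicate 1 the count fell to 3.

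Of the 45 further pathway genes, 39 could be tested in the transwell experiment. From day 0 to EM, 7 were higher and 7 lower in DCs (27.1% and 17.2% of all genes, median log2 fold change 0.00, or 0.07 with absent genes at their bound, against 0.12 over all genes), and from day 0 to co-culture 5 were higher and 8 lower (23.2% and 19.1% of all genes, median -0.31 or -0.42 against 0.00). Id2, a further Id gene, rose with Id1 from 284 ± 96.0 to 2210 ± 23.7 in EM (log2 fold change 3.0 ± 0.20, adjusted p = 3.9e-06; SD, n = 2). Hamp, the gene of hepcidin and a hepatocyte product, was at 115 ± 1.61 in DCs at day 0, at 0 in both EM libraries and at 6.55 ± 4.23 in co-culture, and in Msc at 610 ± 57.4 at day 0 against 0.477 alone and 0 in co-culture. The hepatocyte sum given above also fell from day 0 in both cell types. In DCs this sum was lower in co-culture than in EM, and Hamp was higher in co-culture than in EM. The part of hepatocyte transcripts in the level of Hamp was not tested. Bambi, a decoy receptor, was at 35.0 ± 2.97 in EM and 1.49 ± 0.245 in co-culture (log2 fold change -3.86 ± 0.21, 6.4e-06), and Nbl1, a secreted antagonist, at 15.6 ± 5.62 and 215 ± 6.24 (3.74 ± 0.20, 6.4e-06). In all, 5 genes were higher and 5 lower in co-culture than in EM (5.73% and 7.21% of all genes, median -0.18 or -0.48 against -0.13).

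In Msc, 22 of the 39 genes were higher and 3 lower than in DCs at day 0 (21.4% and 24.7% of all genes, median log2 fold change 1.28 or 1.79 against -0.07). From day 0, 9 were higher and 7 lower alone and 10 higher and 8 lower in co-culture. Of all genes, 27.4% were higher and 17.5% lower in Msc alone, and 26.0% and 17.3% in co-culture. The medians were 0.06 and 0.07 (0.06 and 0.09 with absent genes at their bound) against 0.19 and 0.17 over all genes. Bmper, a secreted modulator of BMP activity, went from 13.9 ± 5.36 to 157 ± 10.8 alone and 130 ± 4.68 in co-culture (log2 fold change 3.45 and 3.18 ± 0.34, adjusted p = 4e-05 and 7e-05). Gdf6 went from 35.5 ± 5.37 to 242 ± 19.5 alone (2.74 ± 0.34, 1.7e-04). Between co-cultured Msc and Msc alone none of the 39 was called by limma (median -0.12 against 0.00).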

How the data were processed

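RNA was sequenced from 12 homeostasis and 12 transwell samples with Smart-seq2 as single reads. Per the labels and the study's methods, the authors aligned reads with STAR (2.5.0a) to GRCm38/mm10 and counted them per gene with featureCounts (1.6.0). The transwell table was deposited as RPKM, with column sums of 317376 to 355429, which were scaled to TPM (a column sum of 1000000). For the homeostasis experiment the deposited values are named TPM, but their column sums run from 847270 to 1173511. They had been divided by the 12 column totals taken in turn down the table, so each equals its TPM times 0.722 to 1.39 and the factor varies within a gene between samples. These values were tested as deposited, and the TPM recovered by undoing that step served for levels between genes and as an alternative.

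Members and lists were chosen with earlier results of these data known. Symbols were matched as written, 26 transwell symbols having become dates, and 4 columns of the authors' means were not used. Whole reads were recovered from low values (at most 20 reads, tolerance 0.02): 92.9% of 47008 homeostasis and 93.1% of 50177 transwell values were whole. Depth is the sum of these reads, and the floor of 3 reads per library covers counting error only. No count model was run, since multiplying out the reads rests on annotated lengths.

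Genes that reached 1 in 3 samples (homeostasis) or 2 samples (transwell) were tested on log2(value + 1) with limma 3.58.1 (R 4.3.3, moderated with a trend), fitting the 12 samples of each experiment together with 1 mean per group. Fold changes on this scale understate those of low genes. The tests were two-sided, p-values were adjusted by Benjamini-Hochberg over all genes tested, and 0.05 was the threshold. Code was tested on simulated data. Groups followed the labels. There were 6 homeostasis and 7 transwell comparisons and 1 difference of changes. Mice A, E and F each gave all 4 homeostasis populations, so the samples were paired, although same-mouse deviations correlated weakly (mean r = 0.0373, 0.00395 to 0.0973, over 18 pairs).

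Every member was described. Of 45 other pathway genes, up to 3 per comparison with the largest called change were eligible to be named, of which 1 gene is not reported here, with some chosen after their values were seen where stated, and the genes most like a member were the 3 with the highest Pearson r, of which the first or first few are given. Alternatives were a pseudocount of 0.1, no filter, a minimum of 5, quantile normalization, no trend, the compared groups alone, the replicate as a block, the other scale of the values, and each sample left out. Python 3.11.15, numpy 2.4.6 and pandas 2.3.3 were used.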

Additional observations from a re-analysis of the deposited data

Results flagged for a closer look

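Between day 0 and co-culture 5 members changed differently in DCs and in Msc, which was tested as the difference of both log2 changes in 1 limma fit (adjusted p over 18136 genes, n = 2 per group). For Bmp2 the difference, DCs minus Msc, was 3.42 ± 0.36 (adjusted p = 1.74e-04), from a change of 0.71 in DCs and -2.71 in Msc. For Bmp4 it was 4.02 ± 0.52 (5.21e-04), from 2.21 in DCs and -1.82 in Msc. For Id1 it was 3.54 ± 0.23 (1.30e-05), from 2.65 in DCs and -0.89 in Msc. For Id3 it was 0.81 ± 0.20 (0.0143), from 0.18 in DCs and -0.64 in Msc, and it was not called under quantile normalization (0.25, 0.386) or without Msc co-culture replicate 1 (0.0521). For Grem1 it was -2.32 ± 0.67 (0.0292), with 9 reads in 1 of the 4 DC libraries against a change of 2.5 in Msc, and it was not called when any one of 7 of the 8 libraries of this comparison was left out (0.0557 to 0.0928) or with a pseudocount of 0.1 (0.254). The hepatocyte and immediate early marker sums also fell in both cell types between these samples, and their part in the differences was not tested. Per the study's methods, Msc had been expanded on the plate before DCs were added in Matrigel on an insert. The change in Msc thus spans a longer culture than that in DCs, and the part of this was not tested.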

How the results depend on the processing

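Of 140 results for a member in a comparison, 77 were called, 62 of these with every library left out in turn and 60 under every alternative, and none was called in the opposite direction. The members called between both PDGFRα+ populations went from 1 to 0 in a fit of these groups only and with the mouse as a replicate block, and ranged from 0 to 1 with a library left out. With the compared groups only, 6 members in place of 3 were called between co-culture and EM. Leaving out 1 library gave 3 to 5 members for DCs in co-culture against day 0 (5 with all, 3 without DC day 0 replicate 2 or DC co-culture replicate 2) and 3 to 6 for the difference of changes (3 without Msc co-culture replicate 1). In the transwell experiment this leaves a group with 1 sample, which is assumed to vary like the others. The replicate block ended the calls of Bmp6 between both PDGFRα+ populations and of Bmp4 between PDGFRα-SCA1+ and PDGFRα+SCA1- cells, and changed no other call of a member. In the transwell experiment replicates 1 and 2 share only a number (mean r of same-numbered deviations 0.00504, of others -0.00504). Over all genes, 100 were called between both PDGFRα+ populations, but 4 with these groups only, 20 with the block and 54 under quantile normalization. Between PDGFRα+SCA1+ cells and DCs 4054 were called, and 6921 with these groups only, between PDGFRα-SCA1+ and PDGFRα+SCA1- cells 3658 and 2173. Between co-cultured Msc and Msc alone 23 were called, against 0 with these groups only, 5 with the block, 40 with a pseudocount of 0.1, 51 without a filter and 15 with a minimum of 5. Quantile normalization moved the median log2 fold change of all genes from -0.47 to -0.14 between PDGFRα+SCA1- cells and DCs. Bmp7 has no homeostasis value at a minimum of 5, and Bmp5, Bmp7 or Grem1 has none with the compared groups only where both hold too few values. Members near 0 are limited by depth.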
